A study of Mus musculus with 4 samples.

Results

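Autotaxin, lysophosphatidic acid (LPA) and sphingosine 1-phosphate (S1P) signalling was examined through the chromatin accessibility of 10 genes in fibroblastic reticular cells (FRCs), the fibroblasts that build the scaffold of lymph nodes. The genes were Enpp2, Lpar1, Lpar3, Lpar4, S1pr1, S1pr2, S1pr3, Spns2, Plpp1 and Plpp3. ATAC-seq, which tags open DNA with a transposase, was read as counts in windows of 300 bp. Windows no more than 100 bp apart were joined to regions, each represented by its window with the most counts. A region was assigned to the protein-coding gene that the midpoint of this window overlapped, or else to the nearest gene within 100000 bp. This gave 145 regions at the 10 genes, of 110121 regions in all (0.132%).

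The tested libraries, called Notch2_cKO, came from mice carrying Ccl19-Cre together with floxed Notch2 (Notch2 fl/fl), and the control libraries from littermates with floxed Notch2 without the Cre. All mice were 12-week-old females by label, on a C57BL/6 background, and each group had 2 libraries, each a pool of 6 mice. The cells came from brachial, axillary and inguinal nodes and were sorted for high BP3 (the product of Bst1), podoplanin, and absence of CD31 and CD45. Ccl19 sequence drives the Cre, so Notch2 is targeted in cells in which that transgene is or was active. With 2 libraries per group, an exact permutation test on a single value could not pass a threshold of 0.05, and the tests below rest on a model fitted across all regions.

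Autotaxin, the secreted enzyme encoded by Enpp2, makes LPA from lysophosphatidylcholine. LPA and S1P are lysophospholipids that act through G protein-coupled receptors, encoded by the Lpar and S1pr genes. Spns2 encodes an exporter that releases S1P from cells, and Plpp1 and Plpp3 encode membrane phosphatases that remove the phosphate from both lipids. In lymph nodes, autotaxin made by reticular cells and high endothelial venules is known to support lymphocyte motility, and a gradient of S1P is known to guide lymphocytes out of the node through S1pr1.

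The best windows of all regions held 30265230 and 12342835 counts in Notch2_cKO replicates 1 and 2, and 23633406 and 25744540 in control replicates 1 and 2. Levels are given as normalized CPM, in which counts are brought to a common scale by a loess fit of each library's trend with mean level. They are not counts divided by the library's own total, and can differ from these. A change is the log2 ratio of Notch2_cKO over control, and SE is its approximate standard error. Regions are called higher or lower in Notch2_cKO at an adjusted p under 0.05 (edgeR quasi-likelihood test, Benjamini-Hochberg over all regions). Notch2 itself had 17 regions, with summed levels of 196 and 198 CPM in Notch2_cKO and 179 and 185 CPM in control, but the labels do not give the deleted part, so these levels do not check the deletion. Markers of reticular cells had 158 regions at 14 of 16 listed genes, and their summed levels were 1520 and 1680 CPM in Notch2_cKO and 1560 CPM in each control. Leukocyte markers, which the sort was meant to leave out, had 18 regions with summed levels of 82.6 and 89.4 CPM in Notch2_cKO and 105 and 97.8 CPM in control. At 4 Y-linked genes both Notch2_cKO libraries held 0 counts, whereas control replicates 1 and 2 held 2 and 656, although every pool is labelled female.

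Of the 145 regions, 20 were higher in Notch2_cKO, 20 were lower and 105 did not pass. The called share was 27.6%, beside 23.7% of all regions tested, and the shares of 13.8% higher and 13.8% lower stood beside 12.4% and 11.3%. The median log2 change was -0.04 over the 145 regions and 0.01 over all regions. Changes of at least 2-fold numbered 5 among the higher and 6 among the lower regions, and their share over all regions was not counted. The 2 groups did not overlap in 98 regions (67.6%, beside 59.8% of all regions), with Notch2_cKO above control in 51 (beside 30.0%) and below it in 47 (beside 29.8%). All 40 called regions were among these.

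The calls were spread over 9 of the 10 genes, and 6 genes had calls in both directions. Enpp2 had 7 higher and 4 lower of 20 regions, Lpar3 had 5 and 3 of 17, and Lpar1 had 4 and 1 of 22. All 6 calls at S1pr1 were lower, of 21 regions, and the 1 call at S1pr2 was lower. Plpp1 had 1 higher and 2 lower of 10 regions, Plpp3 had 1 and 2 of 21, and S1pr3 had 1 and 1 of 18. Spns2 had 1 higher of 8, and none of the 6 regions at Lpar4 passed. The calls lay mostly away from the genes' starts: 30 of 90 regions outside the genes were called (33.3%, beside 24.2% of all such regions), 9 of 45 inside them (20.0%, beside 25.0%) and 1 of 10 within 1000 bp of a gene end (10.0%, beside 10.2%).

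These counts moved with the libraries used, as did those of all regions. Percentages in brackets in this paragraph are shares over all regions tested, not shares of the 145. Leaving out a library leaves 1 in its group, which is then assumed to vary as the remaining pair does. Without control replicate 1, 14 of the 145 were higher and 13 lower (9.17% and 7.3% of all regions), and without control replicate 2, 11 and 15 (8.04% and 7.47%). Without Notch2_cKO replicate 1 the counts were 20 and 15 (10.8% and 8.9%), and without Notch2_cKO replicate 2, the shallowest library, 21 and 29 (14.1% and 13.3%). DESeq2 called 13 higher and 12 lower (6.69% and 4.93%). An adjusted p under 0.01 left 12 and 14 (7.72% and 6.43%). A distance limit of 10000 bp left 63 regions with 5 higher and 10 lower. Of the 71178 regions within that distance of any gene, 11.7% were higher and 9.87% lower.

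**Figure D1:**
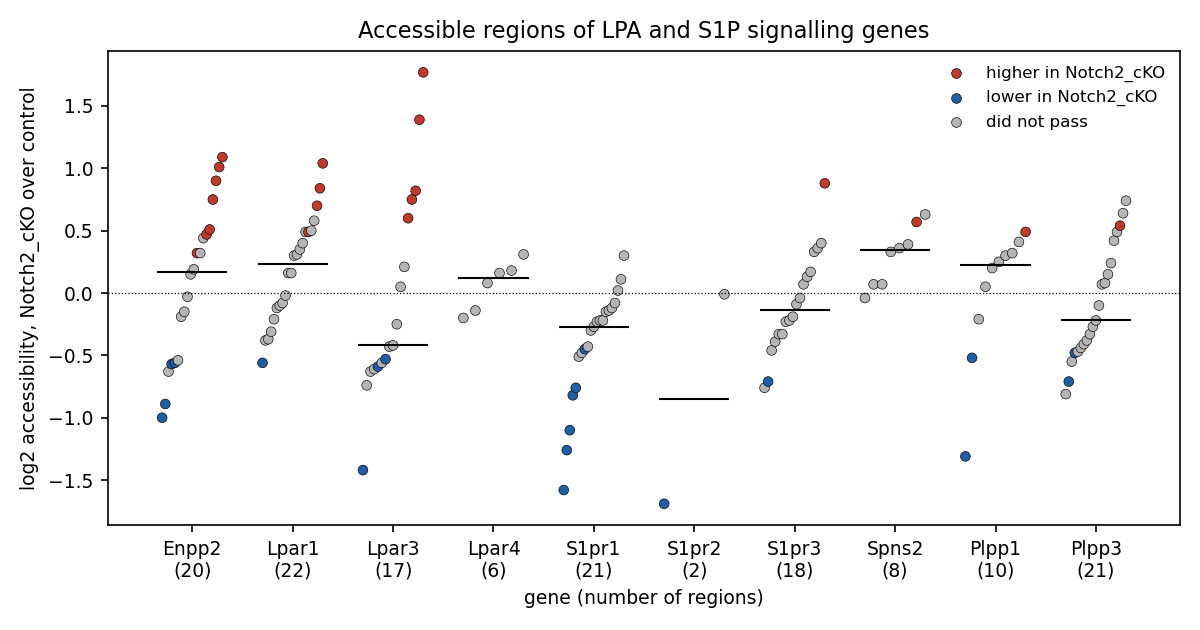
Each point is 1 of the 145 regions, placed by gene on the horizontal axis and by its log2 change of Notch2_cKO over control on the vertical axis, with the gene's median as a line. Enpp2 and Lpar3 have red (higher) and blue (lower) regions on both sides of 0, whereas 18 of the 21 S1pr1 regions lie below 0.

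At Enpp2 (chromosome 15, 54838901 to 54952789, mm10 throughout), the lower regions lay inside the gene and the higher ones outside it. Of 8 regions inside the gene 4 were lower and 0 higher, and of 12 outside it 7 were higher and 0 lower (edgeR). In such counts per gene, regions within 1000 bp of a gene end are not set apart as they were above. They count as inside or outside by the midpoint of their window with the most counts. DESeq2 called 2 lower and 0 higher inside and 5 higher and 0 lower outside, and at an unadjusted edgeR p under 0.05 the counts were 4 and 0 inside and 8 and 1 outside. The median log2 change was -0.55 inside and 0.46 outside. The lower region of smallest p, from 54854251 to 54854900, had 5.65 and 7.87 CPM in Notch2_cKO, against 14.2 and 11.9 CPM in control. The groups did not overlap there, and the change was log2 -1.0 (SE 0.17, edgeR adjusted p = 0.000304). The other lower regions changed by log2 -0.57, -0.89 and -0.56. The higher region of smallest p lay 33501 bp outside the gene (54805101 to 54805650), with 4.99 and 5.77 CPM in Notch2_cKO and 2.09 and 2.86 CPM in control. Its change was log2 1.09 (SE 0.21, edgeR adjusted p = 0.000694), and both Notch2_cKO libraries stood above both controls.

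Higher regions flanked Enpp2 on both sides, 4 of them before its low-coordinate end and 3 beyond its high-coordinate end. On the low-coordinate side they changed by log2 1.09, 0.32, 0.90 and 0.47, and on the other side by log2 0.75, 1.01 and 0.51. The strongest region of all 145, 29351 bp from the gene (54809151 to 54809850), was 1 of them, with a mean level above 99.2% of all regions. It had 81.6 and 103 CPM in Notch2_cKO, against 75.4 and 71.7 CPM in control, so the groups were apart by less than the 2 Notch2_cKO libraries were from each other. Its change of log2 0.32 (SE 0.10, edgeR adjusted p = 0.0247) was 0.08 with TMM scaling (adjusted p = 0.624) and 0.09 with DESeq2 (0.786). The call was also lost without control replicate 1, control replicate 2 or Notch2_cKO replicate 2 (adjusted p = 0.121, 0.242 and 0.17).

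Summed over its 20 regions, Enpp2 had 246 and 274 CPM in Notch2_cKO and 234 and 227 CPM in control. The ratio of the group sums was 1.12. These sums include the strongest region, with means of 92.1 CPM in Notch2_cKO and 73.5 CPM in control. Its change was smaller with TMM scaling and DESeq2, as given above. A strong region inside the gene (54919901 to 54920500) did not pass, with 45.6 and 47.0 CPM in Notch2_cKO and 41.7 and 41.6 CPM in control. Without control replicate 2 the counts at Enpp2 were 3 higher and 2 lower, without control replicate 1 they were 4 and 2, and 2 were lower without Notch2_cKO replicate 1. Of 74 regions within 500000 bp not assigned to Enpp2, 9 were higher and 12 lower, with a median log2 change of 0.08.

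**Figure D2:**
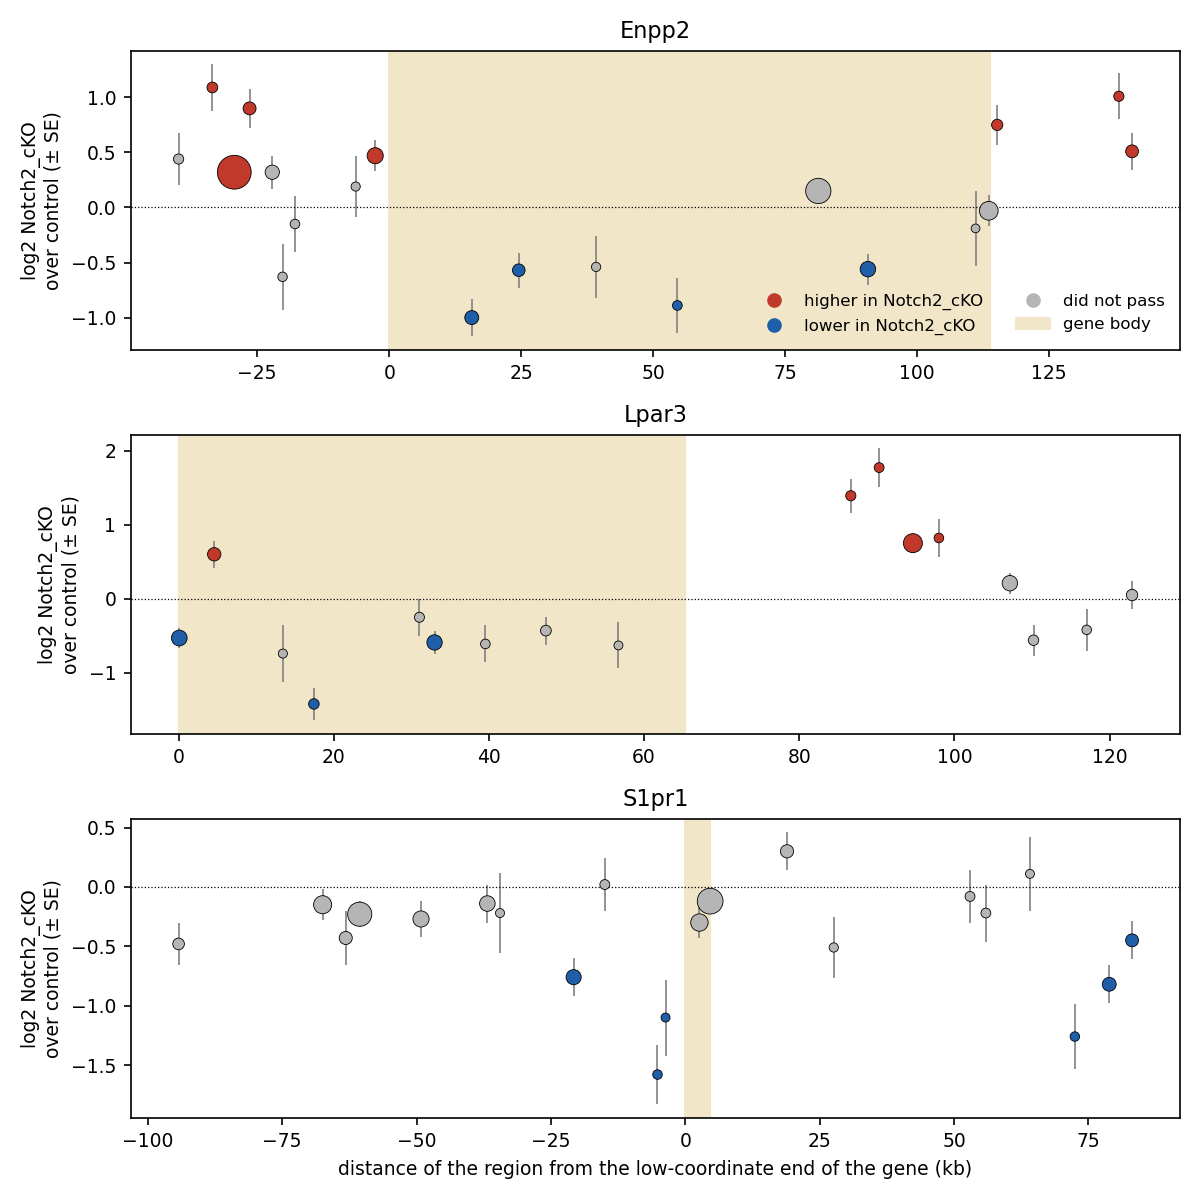
Regions of Enpp2, Lpar3 and S1pr1 are placed by their distance in kb from the low-coordinate end of the gene, with log2 Notch2_cKO over control ± SE on the vertical axis, larger points for higher mean levels, and the gene body shaded. At Enpp2 the 4 blue (lower) regions lie in the gene body and the 7 red (higher) ones on both flanks, and at S1pr1 all 6 called regions are blue.

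Lpar3 (chromosome 3, 146220961 to 146286214) encodes an LPA receptor and had the largest rise of all 145 regions. Its lower regions lay inside the gene, with 3 lower and 1 higher of 9, and 4 of 8 regions outside were higher. The region of largest rise, 25036 bp from the gene (146311051 to 146311550), had 3.89 and 3.68 CPM in Notch2_cKO and 1.41 and 0.839 CPM in control. Its change was log2 1.77 (SE 0.26, edgeR adjusted p = 4.69e-05), with 32 and 21 counts behind the control levels. The strongest region of the gene lay 4350 bp further away (146315101 to 146315850) and had 27.5 and 29.6 CPM in Notch2_cKO, against 15 and 18.9 CPM in control. It rose by log2 0.75 (SE 0.13, edgeR adjusted p = 0.000338). The 4 higher regions followed each other without a gap of more than 4350 bp between their best windows.

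Inside Lpar3, the lower region of smallest p (146238101 to 146238700) had 1.65 and 2.31 CPM in Notch2_cKO and 4.98 and 5.12 CPM in control. This was a change of log2 -1.42 (SE 0.22, edgeR adjusted p = 8.02e-05) without overlap between the groups. Summed over all 17 regions, Lpar3 had 106 and 107 CPM in Notch2_cKO and 103 and 101 CPM in control. Among 92 regions within 500000 bp not assigned to Lpar3, 8 were higher and 7 lower. Without control replicate 1, 4 regions of Lpar3 were higher and 1 was lower, and without Notch2_cKO replicate 2, 5 were higher and 5 lower.

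Lpar1 (chromosome 4, 58435252 to 58554027), which encodes an LPA receptor common in fibroblasts, had 4 higher regions and 1 lower. The higher region of smallest p lay 52073 bp from the gene (58605801 to 58606450), with 22.6 and 24.3 CPM in Notch2_cKO, against 13.1 and 15.8 CPM in control. It rose by log2 0.70 (SE 0.14, edgeR adjusted p = 0.000771), and the groups did not overlap. The other higher regions changed by log2 1.04 inside the gene, and by 0.84 and 0.49 outside it. The 1 lower region, 21502 bp from the other side of the gene (58413401 to 58414200), had 12.0 and 14.4 CPM in Notch2_cKO and 17.0 and 21.4 CPM in control. Its change of log2 -0.56 (SE 0.15, edgeR adjusted p = 0.00999) did not pass without control replicate 2 (adjusted p = 0.223) or without Notch2_cKO replicate 1 (0.0645). The strongest region of Lpar1 (58423051 to 58423700) had 20.0 and 23.3 CPM in Notch2_cKO and 23.5 and 26.1 CPM in control, and did not pass (log2 -0.21, SE 0.13, edgeR adjusted p = 0.264).

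Lpar4, the X-linked gene of another LPA receptor (106920625 to 106933899), had 0 of 6 regions called by edgeR, and also 0 by DESeq2 and by limma. At an unadjusted p under 0.05, 1 was higher and 0 lower. Its strongest region, 30601 bp from the gene (106964201 to 106964800), had 20.7 and 27.4 CPM in Notch2_cKO and 25.8 and 26.2 CPM in control (log2 -0.14, SE 0.13, edgeR adjusted p = 0.512). The controls lay within the range of the Notch2_cKO libraries there. Without Notch2_cKO replicate 2 this region passed as lower (log2 -0.33, adjusted p = 0.0255). Over the 3469 regions of the X chromosome, the median log2 difference of control replicate 2, the library with Y-linked counts, from control replicate 1 was -0.01. The median log2 change of Notch2_cKO over control was -0.1 on the X chromosome and 0.01 on the autosomes. Called shares were 19.3% and 23.9%.

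At S1pr1 (chromosome 3, 115710433 to 115715055), which encodes the S1P receptor that lymphocytes and endothelial cells use, 6 of 21 regions were lower and 0 higher in Notch2_cKO. Neither DESeq2 (3 lower) nor limma (5 lower) called a higher region, and at an unadjusted p under 0.05 edgeR had 8 lower and 0 higher. All 6 lower regions lay outside the gene. They fell into a group 3683 to 20783 bp before its low-coordinate end and a group 67845 to 78495 bp beyond its high-coordinate end. Within the span of the first group, a region at 14983 bp did not pass (log2 0.02, edgeR adjusted p = 0.959). The region of smallest p, 5183 bp from the gene (115705101 to 115705550), had 1.08 and 0.920 CPM in Notch2_cKO and 3.05 and 3.13 CPM in control. It fell by 1.58 on the log2 scale (SE 0.25, edgeR adjusted p = 0.000129), with 33 and 12 counts behind the Notch2_cKO levels and 70 and 78 behind the control levels.

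The other lower regions at S1pr1 changed by log2 -1.10 and -0.76 on the same side and by -1.26, -0.82 and -0.45 on the other side. The 20783 bp region (115689301 to 115689950) was the strongest of the lower ones, with 9.52 and 8.94 CPM in Notch2_cKO and 17.9 and 13.7 CPM in control. Of all 21 regions 18 had a log2 change below 0, and the median was -0.27. The 52 regions within 500000 bp not assigned to S1pr1 had a median of 0.01, with 9 higher and 8 lower. Summed over its regions, S1pr1 had 185 and 217 CPM in Notch2_cKO and 249 and 234 CPM in control. Without Notch2_cKO replicate 2, 10 regions of S1pr1 were lower, and without control replicate 1 or Notch2_cKO replicate 1, 4 were. Just beyond the distance limit, at 113733 bp, a region not counted among the 21 was higher (log2 0.87, edgeR adjusted p = 0.0046), whereas the last one counted, at 94283 bp, had log2 -0.48.

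Markers of cells that the sort was meant to remove had called shares of 15.1% (lymphatic endothelial), 17.5% (mural) and 11.1% (leukocyte), below the 23.7% of all regions, and of 28.1% (blood endothelial). Of 53 regions at all 7 lymphatic endothelial markers, 8 were lower and 0 higher by edgeR (2 higher at an unadjusted p under 0.05), with summed levels of 235 and 252 CPM in Notch2_cKO and 290 and 278 CPM in control. Reln, a large secreted glycoprotein, held 6 of these lower regions, whereas edgeR called 0 of the 8 regions of Prox1, the defining transcription factor (1 higher and 2 lower at an unadjusted p under 0.05), as did DESeq2 and limma. Blood endothelial markers had 13 higher and 5 lower of 64 regions and sums of 410 and 393 CPM in Notch2_cKO and 342 and 344 CPM in control. Tek, the angiopoietin receptor, held 5 of the higher ones. Of the lower ones, 2 were at Kdr, and Cdh5, Madcam1 and Sele each held 1. Mural cell markers had 4 higher and 7 lower of 63 regions (637 and 686 CPM in Notch2_cKO, 668 and 659 CPM in control). Of the 18 leukocyte marker regions 2 were lower and 0 higher by edgeR, also 0 higher at an unadjusted p under 0.05, and both lower ones were at Ms4a1, which encodes CD20. The part of these cells in the S1pr1 values was not tested. In bulk libraries, fewer cells of a type and less accessibility per cell cannot be told apart.

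S1pr2 (chromosome 9, 20965952 to 20976793), which encodes another S1P receptor, had 2 regions. The one 10407 bp from the gene (20986901 to 20987700) had the largest fall of the 145. Its levels were 2.30 and 2.93 CPM in Notch2_cKO, against 7.17 and 9.10 CPM in control. The change was log2 -1.69 (SE 0.20, edgeR adjusted p = 5.67e-06), and the groups were well apart. The call was kept in the 13 alternatives run on it, with log2 changes from -1.85 to -1.45. The next gene, Mrpl4, lay 14052 bp from this region, so nearness does not settle which gene it acts on.

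S1pr3 (chromosome 13, 51408618 to 51422797), the gene of a further S1P receptor found on fibroblasts and mural cells, had 1 higher and 1 lower region far from the gene. The lower one, at 78718 bp (51329701 to 51330200), had 8.95 and 8.13 CPM in Notch2_cKO and 13.6 and 14.6 CPM in control (log2 -0.71, SE 0.15, edgeR adjusted p = 0.00142). The higher one, at 74968 bp (51333351 to 51333950), had 9.25 and 12.3 CPM in Notch2_cKO and 6.30 and 5.13 CPM in control (log2 0.88, SE 0.18, edgeR adjusted p = 0.00109). In both regions the groups did not overlap, and a region between them did not pass (log2 0.13). The strongest region of S1pr3, at 62468 bp (51345801 to 51346500), had 37.1 and 38.9 CPM in Notch2_cKO, against 43.1 and 45.6 CPM in control. It did not pass (log2 -0.23, SE 0.10, edgeR adjusted p = 0.117), but passed as lower with TMM scaling (log2 -0.34, adjusted p = 0.0236) and without Notch2_cKO replicate 2 (-0.25, 0.0318). The distance limit of 100000 bp bore on S1pr3: a region at 98868 bp was counted (log2 0.17), and one at 103818 bp, not counted, had log2 -1.84. Beyond the limit at Lpar1 and Plpp3 the next regions, at 109923 and 106283 bp, had log2 0.23 and 0.57.

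Spns2 (chromosome 11, 72451638 to 72489976), the S1P exporter, had 1 higher region of 8 and 0 lower, also 0 lower at an unadjusted p under 0.05 and by DESeq2 and limma. That region lay inside the gene (72485051 to 72485650), with 13.2 and 11.9 CPM in Notch2_cKO, against 8.95 and 8.05 CPM in control. It rose by log2 0.57 (SE 0.15, edgeR adjusted p = 0.00869), and did not pass without control replicate 2 (adjusted p = 0.157). The surroundings of Spns2 were higher as well. Of 74 regions within 500000 bp not assigned to Spns2, 32 were higher and 1 lower. Their median log2 change was 0.47, beside 0.35 over the regions of Spns2. The strongest region of Spns2 (72461501 to 72462250) had 52.7 and 57.1 CPM in Notch2_cKO and 51.9 and 52.2 CPM in control, a change of log2 0.07 (SE 0.09) that did not pass (edgeR adjusted p = 0.636).

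The lipid phosphatase genes each had changes in both directions. At Plpp1 (chromosome 13, 112800777 to 112867894) a lower and a higher region lay 1100 bp apart, before the low-coordinate end of the gene. The lower one (112785101 to 112785450) had 2.01 and 1.61 CPM in Notch2_cKO and 4.70 and 4.61 CPM in control, a change of log2 -1.31 (SE 0.21, edgeR adjusted p = 0.000153). The higher one (112786201 to 112786700) had 8.68 and 7.59 CPM in Notch2_cKO and 5.37 and 6.35 CPM in control, a change of log2 0.49 (SE 0.17, edgeR adjusted p = 0.0414). The log2 change of the higher region stayed above 0 in all 13 alternatives run on it (0.36 to 0.60), and the call passed in 6 of them, TMM scaling among them (adjusted p = 0.0298). It missed the test with DESeq2 (log2 0.52, adjusted p = 0.166) and with limma (0.47, 0.0581). It also missed the test when control replicate 1 (log2 0.36, adjusted p = 0.344), control replicate 2 (0.60, 0.0817) or Notch2_cKO replicate 1 (0.38, 0.232) was left out.

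At Plpp3 (chromosome 4, 105157347 to 105232767), whose product also clears S1P outside cells, edgeR, DESeq2 and limma called 0 of the 8 regions inside the gene (1 higher and 0 lower at an unadjusted edgeR p under 0.05). Of 13 regions outside it 1 was higher and 2 were lower. The lower region of smallest p, at 33133 bp (105265551 to 105266200), had 11.4 and 10.3 CPM in Notch2_cKO and 17.6 and 18.2 CPM in control. It changed by log2 -0.71 (SE 0.14, edgeR adjusted p = 0.000837). The 1 higher region (105248051 to 105248650) had 6.13 and 7.33 CPM in Notch2_cKO and 5.12 and 3.99 CPM in control. Its log2 change was 0.54 (SE 0.19, edgeR adjusted p = 0.04). The test was missed in 6 of the 13 alternatives run on this region. Among them were DESeq2 (log2 0.60, adjusted p = 0.14) and the fits without control replicate 2 (log2 0.36) and without Notch2_cKO replicate 2 (0.44). Of 43 regions within 500000 bp not assigned to Plpp3, 10 were higher and 0 lower. Their median was log2 0.36, whereas the median over Plpp3 was -0.22.

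Where called regions within 5000 bp followed each other with no region between them, 3 of 11 such pairs at the 10 genes went opposite ways, at Plpp1, Lpar3 and Plpp3. Among all regions, 456 of 2681 such pairs (17.0%) did.

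**Figure D3:**
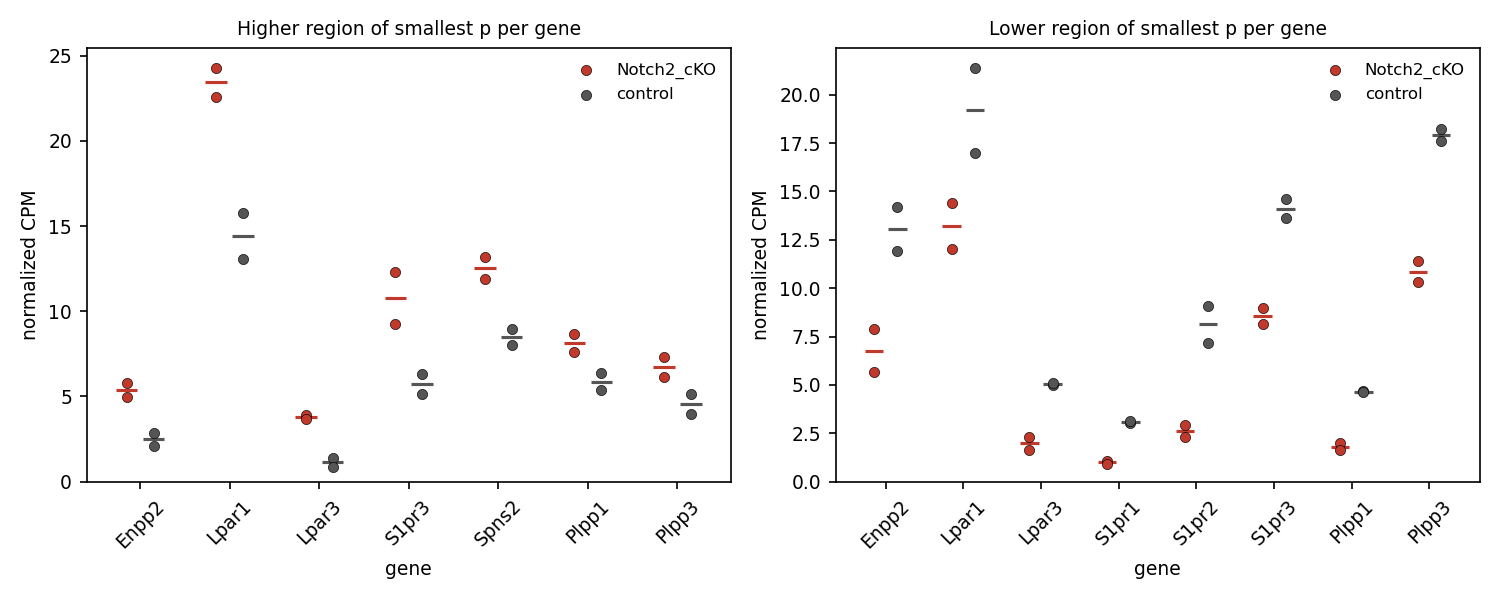
For each gene with a call, the normalized CPM of the higher (left panel) and the lower (right panel) region of smallest p is shown for both Notch2_cKO libraries (red) and both control libraries (grey), with group means as lines. In each pair the groups do not overlap, as at Lpar3 on the left (3.89 and 3.68 CPM in Notch2_cKO, 1.41 and 0.839 CPM in control) and S1pr2 on the right (2.30 and 2.93 CPM in Notch2_cKO, 7.17 and 9.10 CPM in control).

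The regions at the starts or ends of the 10 genes were mostly strong and changed little. Of 10 such regions 1 was lower and 0 higher by edgeR (2 lower and 0 higher at an unadjusted p under 0.05). The called share of 10.0% stood beside 10.2% of all regions within 1000 bp of a gene end. Log2 changes of the 10 regions ran from -0.53 to 0.08. The 1 lower region was that at the start of Lpar3 (146220651 to 146221300). It had 11.5 and 11.2 CPM in Notch2_cKO and 16.6 and 16.3 CPM in control, a change of log2 -0.53 (SE 0.14, edgeR adjusted p = 0.00819). In the 14 alternatives run on it the log2 change lay between -0.56 and -0.47, but the test was missed without control replicate 1 (adjusted p = 0.0705), without control replicate 2 (0.0577) and with DESeq2 (0.0512).

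The start of S1pr2 (20976501 to 20977050) had 25.3 and 20.2 CPM in Notch2_cKO and 20.3 and 26.0 CPM in control, so the groups overlapped (log2 -0.01, SE 0.14), although the region 10407 bp away had the largest fall. The start of S1pr3 (51408401 to 51409000) had 38.0 and 38.3 CPM in Notch2_cKO and 35.4 and 37.4 CPM in control (log2 0.07, SE 0.10). The region at the high-coordinate end of S1pr1 (115714851 to 115715400) was the strongest of that gene, with 40.7 and 47.6 CPM in Notch2_cKO and 48.0 and 47.6 CPM in control (log2 -0.12, SE 0.10). At the high-coordinate end of Enpp2 (54952101 to 54952800) the levels were 24.6 and 18.6 CPM in Notch2_cKO and 23.0 and 21.9 CPM in control (log2 -0.03, SE 0.14). The region at the low-coordinate end of Plpp1 (112800501 to 112801150) had 48.3 and 47.0 CPM in Notch2_cKO, against 52.7 and 57.8 CPM in control. It did not pass (log2 -0.21, SE 0.10, edgeR adjusted p = 0.122), but passed as lower with TMM scaling (log2 -0.37, adjusted p = 0.0136). The starts of Lpar1, Lpar4, Spns2 and Plpp3 changed by log2 -0.12, 0.08, 0.07 and -0.10, and none of them passed.

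**Figure D4:**
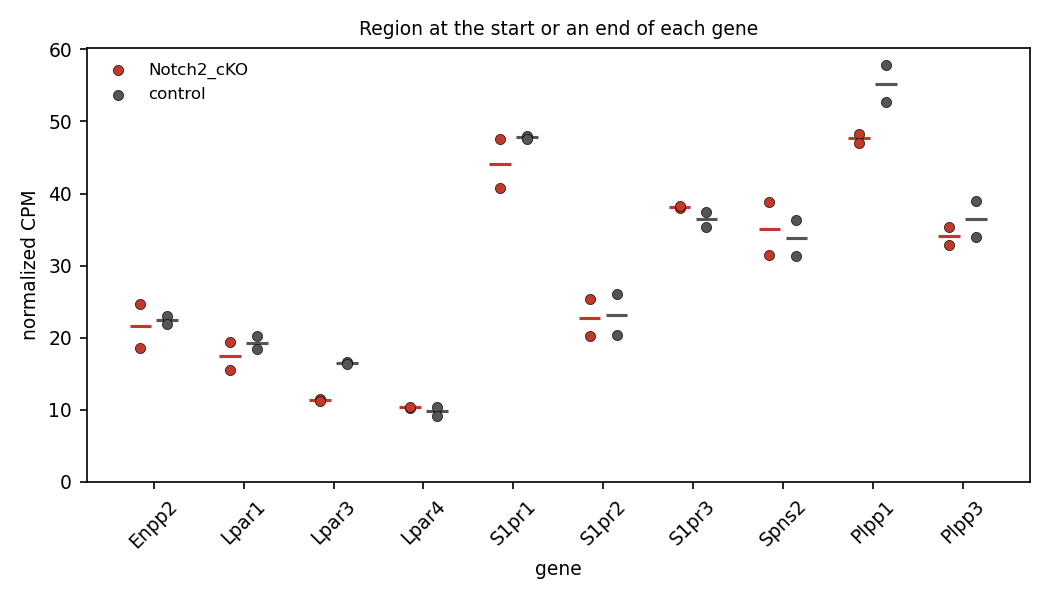
Normalized CPM of the region at the start of each gene (at an end of the gene for Enpp2, S1pr1 and Plpp1, whose strand is not given) in both Notch2_cKO libraries (red) and both control libraries (grey), with group means as lines. Lpar3, with 11.5 and 11.2 CPM in Notch2_cKO and 16.6 and 16.3 CPM in control, is the only one of these 10 regions that passed the test.

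The promoter sequences of the S1P receptor genes S1pr2 and S1pr3 and of Lpar3 are shown to set the 1 gene start that was lower beside a pair that did not pass. They run from 250 bases before to 50 after an annotated start, 5′ to 3′ along the gene, and come from RefSeq (GRCm38.p6), whose table held 9 starts for 7 of the 10 genes. Capitals mark TGGGAA, the core of the motif of Rbpj, the DNA-binding partner of Notch.
Lpar3, chr3:146220711-146221010, plus strand: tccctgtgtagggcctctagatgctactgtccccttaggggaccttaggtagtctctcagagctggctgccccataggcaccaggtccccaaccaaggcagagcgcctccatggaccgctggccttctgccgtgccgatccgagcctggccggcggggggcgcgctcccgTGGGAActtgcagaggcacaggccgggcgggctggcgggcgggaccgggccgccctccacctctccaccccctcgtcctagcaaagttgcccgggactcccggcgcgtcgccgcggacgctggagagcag
S1pr3, chr13:51408368-51408667, plus strand: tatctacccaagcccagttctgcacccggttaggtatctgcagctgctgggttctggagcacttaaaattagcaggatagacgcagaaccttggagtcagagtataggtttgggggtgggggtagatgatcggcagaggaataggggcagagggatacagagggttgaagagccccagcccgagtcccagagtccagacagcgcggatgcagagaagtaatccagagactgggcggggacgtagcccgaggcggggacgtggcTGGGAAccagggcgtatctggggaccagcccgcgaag
S1pr2, chr9:20976744-20977043, minus strand: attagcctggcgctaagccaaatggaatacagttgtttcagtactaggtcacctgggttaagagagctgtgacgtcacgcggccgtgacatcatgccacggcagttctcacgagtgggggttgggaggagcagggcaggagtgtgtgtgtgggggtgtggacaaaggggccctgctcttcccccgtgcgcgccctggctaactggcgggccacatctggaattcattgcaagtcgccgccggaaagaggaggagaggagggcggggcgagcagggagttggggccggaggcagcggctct

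TGGGAA, searched on both strands, was found in the promoters of Lpar3 and S1pr3, at bases 171 and 264, and in none of the other 7 windows. The same letters occur in 25.6% of the 32851 promoters of the table. Neither TGANTCA, the AP-1 motif (7.81% of all promoters), nor GGAATG, the TEAD motif (14.7%), was found in any of the 9 windows. A match is a string of letters and not a shown binding site, and most called regions lie outside these windows. The Lpar3 promoter had 70.3% G and C with 25 CpG dinucleotides, those of S1pr2 and S1pr3 had 62.0% and 59.0% with 18 and 14, and the medians over the table were 52.7% and 7.

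Other genes of the same pathways were read from lists. On the LPA side, which held receptors, LPA-forming enzymes and related phosphatases, 8 of 78 regions were higher and 13 lower, a called share of 26.9%, beside 23.7% of all regions. Inside Plppr1, a gene of the phosphatase-related proteins of neurons, a region had 2.20 and 1.92 CPM in Notch2_cKO and 7.35 and 7.17 CPM in control (log2 -1.78, SE 0.20). Inside Plpp4, a lipid phosphatase gene, a region had 8.75 and 8.51 CPM in Notch2_cKO and 4.67 and 4.82 CPM in control (log2 0.87, SE 0.17). Of the other receptor genes, Lpar5 had 1 lower region of 3, and the 1 region of Lpar6 was higher.

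On the S1P side, without S1pr4 and Apom, which had no region, 6 of 52 regions were higher and 6 lower (23.1%, beside 23.7% of all regions). Both regions of smallest p belonged to alkaline ceramidase genes, whose products release sphingosine from ceramide. Inside Acer2 a region had 2.85 and 3.64 CPM in Notch2_cKO, against 11.8 and 9.94 CPM in control (log2 -1.79, SE 0.19). Inside Acer3 a region had 18.5 and 15.6 CPM in Notch2_cKO, against 7.74 and 8.71 CPM in control (log2 1.07, SE 0.15). Sphk1, the kinase gene that makes S1P, had 1 higher of 3 regions. The lyase gene Sgpl1 had 0 of 5 regions called by edgeR, DESeq2 or limma (2 lower and 0 higher at an unadjusted edgeR p under 0.05). The share of each list was not tested against that of the 10 genes.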

How the data were processed

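ATAC-seq counts of 4 libraries were analysed. The build was mm10 and the tools were Bowtie2 2.4.5, Picard 2.27.5, SAMtools 1.14, Trim Galore 0.6.7, deepTools and cutadapt, per the submitters' processing notes. The deposited table gives counts as whole numbers in 678058 overlapping 300 bp windows, made with csaw per the labels. Although labelled as loess-normalized, the values have unequal library totals, and were used as counts with loess offsets fitted here. Whether the deposited values had already been adjusted was not settled. The peak caller, the window filter and any transposase shift were not found in the sources used here.

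Windows were merged into 110121 regions (median width 600 bp). Each library's loess trend against mean level (limma 3.58.1) entered as an offset, and edgeR 4.0.16 fitted genotype without a replicate term (R 4.3.3). The fit was first run on simulated counts in which few regions changed. That check does not cover changes as widespread as those called here. The SE is the absolute change divided by the root of its F statistic. DESeq2 1.42.0 was an alternative. Libraries of a group are separate pools of animals. Genes and promoters came from RefSeq tables of GRCm38.p6. No genome sequence was used here, so motifs outside the promoters were not searched.

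The 10 genes, the lists and the rule for named regions were chosen with earlier results of these data known. Named were, per gene, the strongest region, the region at the gene start (either end where no strand is given) and the called region of smallest p in each direction, and per pathway list the called regions of smallest p. The S1pr1 region at 20783 bp and a strong Enpp2 region inside the gene were named after their values were seen. The same holds for the Lpar, Sphk1, Sgpl1, Reln, Tek, Kdr, Cdh5, Madcam1, Sele and Ms4a1 counts. A further list of downstream genes enters the totals for the other pathway genes and is not reported here.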

Additional observations from a re-analysis of the deposited data

How the results depend on the processing

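The 20 higher and 20 lower regions of the 10 genes were recounted under 15 alternatives. DESeq2 gave 13 and 12, an adjusted p under 0.01 gave 12 higher, and genes within 10000 bp gave 5 and 10 of 63 regions, since fewer regions are then assigned. Leaving out each library in turn gave 11 to 21 higher and 13 to 29 lower regions. For the other pathway genes, with 18 higher and 26 lower regions, DESeq2 gave 6 and 9, an adjusted p under 0.01 gave 7 and 14, and leaving out a library gave 6 to 20 higher and 18 to 35 lower. The cause of these shifts was not tested, except that a stricter threshold calls fewer by construction.

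With the replicate number as a block, 16 regions of the 10 genes were higher and 17 lower, and 14 and 24 of the other pathway genes, beside 11.1% and 9.94% of all regions. The labels do not say that the numbers pair the pools, and same-numbered libraries did not deviate together (correlation -0.179 over 110121 regions). The crossed pairing, added after the data were seen, gave 29 higher and 29 lower regions, and 24 and 41 for the other pathway genes, beside 16.4% and 15.3% of all regions.

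Up to 14 alternatives, without the crossed pairing, were run on each of the 31 named regions. Not all of them could change a call. The distance limit of 10000 bp reuses the reported fit, and a threshold of 0.01 cannot add a call. Merging windows up to 500 bp apart gave 110101 regions instead of 110121, so it left most regions as they were. Of 418 values 383 kept their side of the threshold, 27 lost the call and 8 gained it, and no called region changed sign. Small changes that had not passed did change sign, as at the strongest Spns2 region (log2 -0.09 with TMM, 0.07 as reported), the S1pr3 start (-0.04 with TMM, 0.07 as reported), the S1pr2 start (0.16 without control replicate 2, -0.01 as reported) and the strongest Lpar4 region (0.10 without Notch2_cKO replicate 1, -0.14 as reported). Most losses were at the strongest Enpp2 region and the higher regions of Plpp1 and Plpp3. Whether the depth of Notch2_cKO replicate 2, the shallowest library, bears on these losses was not tested. That library held 1175, 98 and 95 counts at these regions of Enpp2, Plpp1 and Plpp3. Its lowest count was 7, at a weak region of Lpar1.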
